A study of Homo sapiens with 10 samples.

Results

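The genes described here are TXNIP and its arrestin-domain relatives ARRDC1, ARRDC2, ARRDC3 and ARRDC4, the glucose-sensing transcription factor genes MLXIP, MLXIPL and MLX, and KLF10. They were chosen by name, as a pathway, with earlier results of these data known. They make up 9 of the 22626 rows of the deposited tables. ARPE-19 is an established cell line of human retinal pigment epithelium (RPE), the cell layer that feeds and supports the photoreceptors. The cells were grown for 48 h either in a control medium, MG, which held 5.5 mM glucose and 32 mM mannitol (n = 5), or in a high glucose medium, HG, which held 37.5 mM glucose (n = 5). The study used the HG medium as a culture model of diabetes, and mannitol balances the osmotic load of the added sugar. No genetic change was made in either group, and both groups are the same cell line. The labels do not say whether the libraries of a group came from separate cultures, so that p-values measure the spread between these libraries, which may be technical. The HG libraries are named by their deposited columns, HG_1 to HG_5, and the MG libraries by replicate number. Because glucose and mannitol changed together, their parts in any difference cannot be told apart.

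TXNIP encodes thioredoxin-interacting protein, an alpha-arrestin that binds thioredoxin and helps to take glucose transporters off the cell surface. Its relatives ARRDC1 to ARRDC4 share the arrestin fold, and most of them act as adaptors that bring ubiquitin ligases to membrane proteins. MondoA (gene MLXIP) and ChREBP (gene MLXIPL) are paired with MLX and enter the nucleus when glucose 6-phosphate accumulates. There they bind paired E-box-like motifs called carbohydrate response elements, of which those of TXNIP and ARRDC4 are textbook examples, while KLF10 encodes a zinc finger repressor that is also induced by sugar in liver.

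The promoters of the 3 genes that rose in HG cells are shown first, so that the motif through which the sensors act can be seen where it is present. The sequences are from RefSeq (GRCh38.p14), read on the strand of the gene, from 250 bases before the start site to 50 bases after it. Of the 9 genes, 8 were matched, with 11 promoters among them, and KLF10 was not. The search covered both strands for CACGTG (the E-box), for the paired motif (an arm, 5 bases and another arm, where an arm reads CACGNG on one strand or, which is its reverse complement, CNCGTG), for CCAAT (the box bound by NF-Y), and for TATAAA, the TATA box. The letters of the E-box are themselves one of the forms that an arm can take. Capitals mark the E-box, the arms of the paired motif and CCAAT, which reads ATTGG where it lies on the other strand.
TXNIP, chr1:145996530-145996829, minus strand: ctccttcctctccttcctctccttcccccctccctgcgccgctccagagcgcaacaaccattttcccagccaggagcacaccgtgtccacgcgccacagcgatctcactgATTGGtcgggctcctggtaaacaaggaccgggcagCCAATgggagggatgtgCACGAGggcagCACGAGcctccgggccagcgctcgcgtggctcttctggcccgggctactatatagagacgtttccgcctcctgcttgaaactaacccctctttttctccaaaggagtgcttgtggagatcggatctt
ARRDC4, chr15:97960453-97960752, plus strand: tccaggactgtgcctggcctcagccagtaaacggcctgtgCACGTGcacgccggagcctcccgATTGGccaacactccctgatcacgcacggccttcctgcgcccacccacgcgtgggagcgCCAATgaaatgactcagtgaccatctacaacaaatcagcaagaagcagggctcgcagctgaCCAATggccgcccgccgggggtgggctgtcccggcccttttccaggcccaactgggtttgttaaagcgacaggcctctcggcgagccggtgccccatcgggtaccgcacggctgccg
ARRDC3, chr5:91383268-91383567, minus strand: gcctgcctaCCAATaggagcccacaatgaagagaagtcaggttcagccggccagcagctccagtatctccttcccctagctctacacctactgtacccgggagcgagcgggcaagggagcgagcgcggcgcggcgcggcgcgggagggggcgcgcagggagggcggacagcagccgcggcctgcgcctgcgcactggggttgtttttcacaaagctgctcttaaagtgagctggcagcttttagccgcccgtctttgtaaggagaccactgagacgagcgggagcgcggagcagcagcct

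Of the 8 genes matched, TXNIP was the one whose promoter held the paired motif. It lay at chr1:145996651-145996667, beginning at position -88 from the start site, and with 10 bases on each side it reads as follows.
TXNIP paired motif: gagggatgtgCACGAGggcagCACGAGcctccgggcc
A CCAAT on the same strand began at position -105 and another on the other strand at position -140. The ARRDC4 promoter held no paired motif in the exact letters searched, which allow no mismatch in either arm, but had an E-box at position -210 and CCAAT at positions -187, -128 and -67. In the ARRDC3 promoter the search found a single CCAAT, at position -241. TXNIP and ARRDC3 each have another promoter in the RefSeq table, not shown, in which none of the motifs was found. Of all 35114 promoters in the RefSeq table, 27 (0.0769%) held the paired motif, 2548 (7.26%) an E-box, 12155 (34.6%) a CCAAT and 4049 (11.5%) a TATAAA. MLX, the obligate partner of both sensors, had the only other E-box among the 8 genes matched, at position -50. Its promoter is shown because the gene holds an E-box and did not pass the test between the groups.
MLX, chr17:42566850-42567149, plus strand: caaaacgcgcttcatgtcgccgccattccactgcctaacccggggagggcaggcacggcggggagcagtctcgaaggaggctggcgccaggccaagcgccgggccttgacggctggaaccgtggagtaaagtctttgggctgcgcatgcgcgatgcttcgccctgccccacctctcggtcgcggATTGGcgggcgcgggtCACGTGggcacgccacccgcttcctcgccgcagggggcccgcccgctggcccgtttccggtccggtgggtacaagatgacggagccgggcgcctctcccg
A match describes these letters in this window and is no measurement of binding.

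Of the 8 members that passed edgeR's filter on low counts, 4 had an adjusted p under 0.05 in the quasi-likelihood test of HG against MG, where 15.4% of the 14936 rows tested did. That share moved to 27.7% of 13538 rows after a correction for GC content and length, with 4 of the 8 members past the threshold, and to 27.1% of 14899 rows without HG_1 and MG replicate 2 together, with 5. TXNIP, ARRDC4 and ARRDC3 rose, against a background of 7.62% of all rows higher, and MLXIP fell, against 7.8% lower. ARRDC1, ARRDC2, MLX and KLF10 did not pass, and MLXIPL had too few reads to be tested. For the 4 genes that passed, the 2 groups of libraries did not overlap. Over all rows tested, every HG library lay above every MG library in 6.74% and below in 6.91%. The median log2 fold change was 0.09 over the 8 tested members and 0.00132 over all rows tested. The exact permutation test of a single gene over all arrangements of the 10 libraries cannot give a p below 0.00794. In bulk RNA, a higher level in each cell and a larger share of cells with the transcript cannot be told apart.

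**Figure D1:**
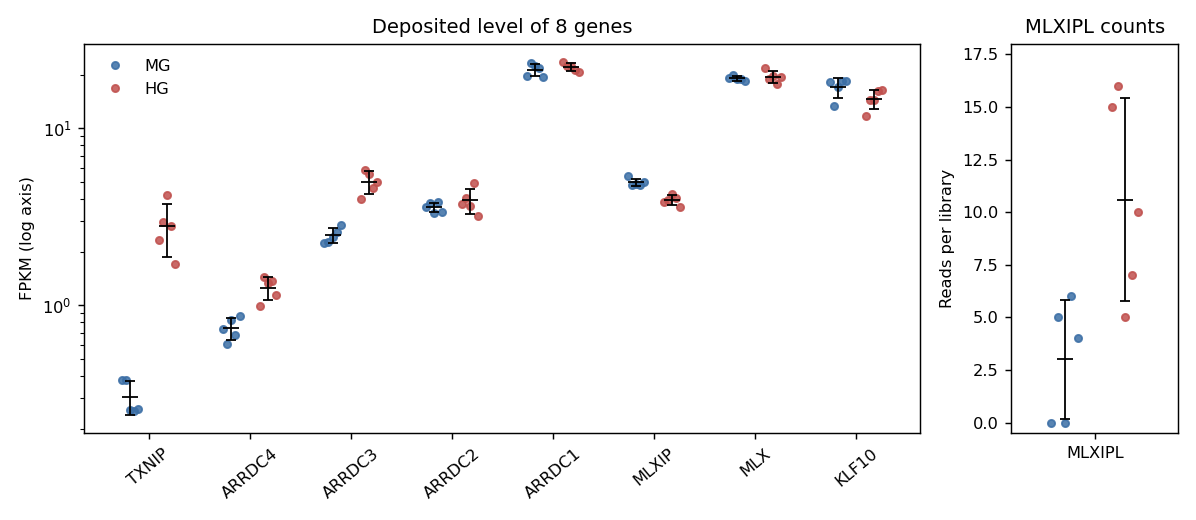
FPKM of 8 genes (left, log axis) and reads of MLXIPL (right) in each of the 5 MG (blue) and 5 HG (red) libraries, with the group mean and SD as bars. TXNIP, ARRDC4 and ARRDC3 lie higher in all HG libraries and MLXIP lies lower, while the other groups overlap.

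TXNIP had the largest change of the 9 genes. In CPM, the reads of a gene scaled to library size with TMM factors, TXNIP stood at 1.21, 1.23, 0.818, 0.817 and 0.809 in MG replicates 1 to 5. In HG_1 to HG_5 it stood at 7.59, 9.07, 12.9, 8.63 and 5.38 CPM. The lowest HG library was thus far above the highest MG library, and the spread was widest among the HG libraries, with HG_3 the highest and HG_5 the lowest. The mean rose from 0.978 ± 0.224 to 8.72 ± 2.76 CPM (SD, n = 5 each), a fold change of 8.9 with a 95% interval of 6.09 to 13 (log2 3.15, SE 0.25, edgeR adjusted p = 5.55e-05). The exact permutation test gave p = 0.00794. By size of log2 fold change, TXNIP ranked 5 among the genes that were higher. These values rest on few reads in MG cells, between 27 and 55 per library against 177 to 581 in HG cells. The exact Poisson 95% interval was 17.8 to 39.3 for the 27 reads of MG replicate 4 and 152 to 205 for the 177 reads of HG_5, which covers counting error only. In FPKM, which divides by transcript length, TXNIP went from percentile 9.07 of all rows tested in MG cells to percentile 33.8 in HG cells. On the log2(FPKM + 1) scale its difference was 1.51, since the MG level is below the pseudocount.

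ARRDC4, the closest relative of TXNIP and likewise a brake on glucose uptake, rose by less. It was at 3.24, 2.74, 3.63, 3 and 3.8 CPM in MG replicates 1 to 5 and at 4.52, 6.21, 5.84, 5.93 and 4.96 CPM in HG_1 to HG_5. All HG libraries were above all MG libraries, although HG_1 and MG replicate 5 were close to each other. The mean rose from 3.28 ± 0.438 to 5.49 ± 0.716 CPM, a fold change of 1.67 with a 95% interval of 1.36 to 2.06 (log2 0.74, SE 0.14, edgeR adjusted p = 0.00414). On the log2(FPKM + 1) scale the ARRDC4 difference was 0.37.

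ARRDC3, an adaptor that brings NEDD4-type ligases to the beta2-adrenergic receptor and to integrin beta 4, about doubled. The MG libraries held 10.4, 10.7, 11.2, 11.9 and 13 CPM and the HG libraries 18.8, 26.3, 24.9, 20.8 and 22.5 CPM. The groups were well apart, with HG_1 the lowest of the HG libraries. ARRDC3 rose from 11.4 ± 1.03 to 22.7 ± 3.01 CPM, a fold change of 1.99 with a 95% interval of 1.7 to 2.32 (log2 0.99, SE 0.10, edgeR adjusted p = 0.000182). The gene overlaps the non-coding ARRDC3-AS1 on the other strand. No source used here says whether the counting used strand, and ARRDC3-AS1 has no row in the tables, so that reads of the pair could not be told apart.

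ARRDC1 and ARRDC2 did not pass the test. ARRDC1, which recruits TSG101 to bud vesicles from the cell surface, was at 28.9 to 37 CPM in MG and 31.3 to 37.8 CPM in HG libraries. Its log2 fold change was 0.05 with a 95% interval of -0.13 to 0.22 (edgeR adjusted p = 0.765). The highest library of each group was the one with a GC trend, HG_1 at 37.8 and MG replicate 2 at 37 CPM. ARRDC1 also shares exons with ARRDC1-AS1 on the other strand, which has no row, and with AL590627.2 on its own strand. ARRDC2, a less studied member of the family whose exons overlap AC020904.3 on the other strand, was at 8.85 to 10.5 CPM in MG and 8.55 to 13.3 CPM in HG libraries, with HG_4 the highest. Its log2 fold change was 0.14 with a 95% interval of -0.12 to 0.39 (edgeR adjusted p = 0.503). For both genes the interval leaves out a doubling, and neither was shown to be unchanged.

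**Figure D2:**
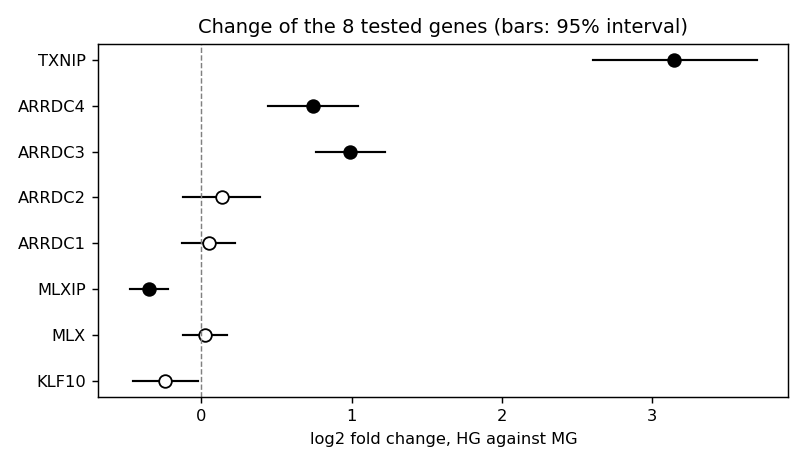
Log2 fold change of HG against MG for the 8 tested genes, with 95% intervals from the edgeR fit. Filled points have an adjusted p under 0.05, and TXNIP stands at 3.15, beyond ARRDC3 at 0.99 and ARRDC4 at 0.74.

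Whether TXNIP and ARRDC4 changed by the same factor was tested on their ratio within each library. The log2 ratio of TXNIP to ARRDC4 in CPM was -1.71 ± 0.45 in MG libraries (range -2.16 to -1.12) and 0.62 ± 0.37 in HG libraries (range 0.12 to 1.14). It therefore moved by 2.33, with p = 0.00794 in the two-sided exact permutation test and 0.0159 after adjustment over the 2 ratios tested. The rise of TXNIP was larger than that of ARRDC4 in these libraries. The log2 ratio of ARRDC4 to ARRDC3 moved by -0.25, from -1.79 ± 0.16 to -2.04 ± 0.14, and the ranges overlapped. Its exact permutation p was 0.0476, also after adjustment, and it was between 0.0794 and 0.103 in 7 of the 10 runs with 1 library left out.

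**Figure D3:**
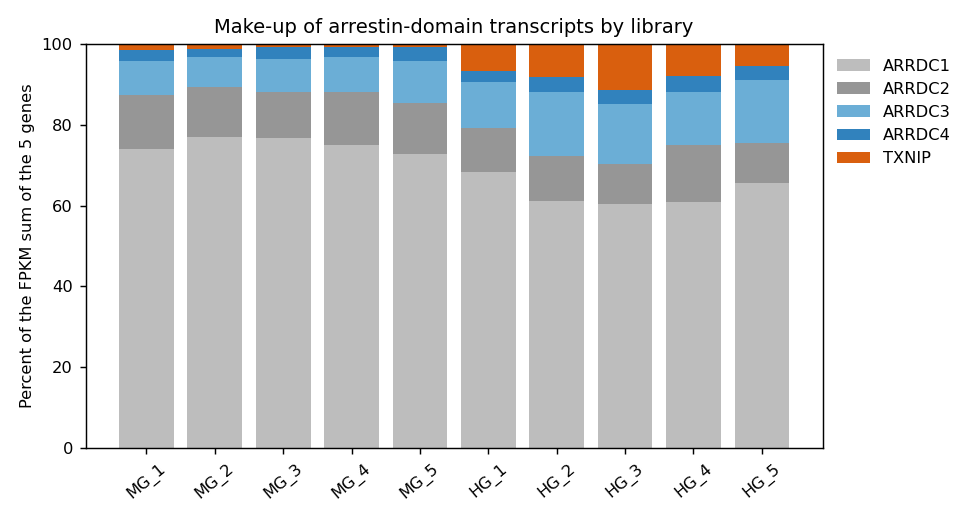
Percent of the FPKM sum of TXNIP and ARRDC1 to ARRDC4 that each gene takes, by library (MG_1 to MG_5 are MG replicates 1 to 5). The TXNIP part is between 0.863% and 1.41% in MG libraries and between 5.38% and 11.3% in HG libraries.

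Per length of transcript, ARRDC1 was the most abundant arrestin-domain gene in both groups. Its FPKM was 21.4 ± 1.69 in MG and 22.2 ± 1.13 in HG libraries, and it made up 75% ± 1.77 of the FPKM sum of the 5 genes in MG and 63.3% ± 3.48 in HG cells. ARRDC2 took 12.5% ± 0.753 and then 11.1% ± 1.71. ARRDC3 went from 8.74% ± 1.15 to 14.2% ± 1.86 and ARRDC4 from 2.62% ± 0.48 to 3.56% ± 0.429. TXNIP went from 1.07% ± 0.244, the smallest share, to 7.86% ± 2.2, above ARRDC4. The ranges of the TXNIP, ARRDC3 and ARRDC1 shares did not overlap between the groups, whereas those of ARRDC4 and ARRDC2 did. The sum itself was 28.5 ± 1.64 FPKM in MG and 35.2 ± 2.07 FPKM in HG libraries.

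The order of all 9 genes by FPKM in MG libraries was ARRDC1, MLX (19.1), KLF10 (17.1), MLXIP (4.96), ARRDC2 (3.58), ARRDC3 (2.48), ARRDC4 (0.743), TXNIP (0.305) and MLXIPL (0.0204). The ranges over libraries overlapped between ARRDC1 and MLX and between MLX and KLF10, and between no other neighbours in this order. In HG libraries ARRDC3 (4.98) stood before MLXIP (3.93) and ARRDC2 (3.91), and TXNIP (2.8) before ARRDC4 (1.25). There the ranges overlapped between ARRDC1 and MLX, and from ARRDC3 through MLXIP and ARRDC2 to TXNIP each with the next. TXNIP remained a transcript of modest level in HG cells, below ARRDC1 and MLX in each library.

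MLXIP, which encodes MondoA, fell, while MLX did not pass the test and MLXIPL could not be tested in the same fit. MLXIP was at 48.1, 44.6, 43.5, 42.8 and 44.4 CPM in MG replicates 1 to 5 and at 35.8, 34.3, 37.7, 35.8 and 31.6 CPM in HG_1 to HG_5. Every HG library was below every MG library, and the spread within each group was narrow. MLXIP fell from 44.7 ± 2.06 to 35 ± 2.28 CPM, a change of -21.6% (log2 -0.35, 95% interval -0.48 to -0.22, SE 0.06, edgeR adjusted p = 0.00237). The gene overlaps no other gene in GENCODE 29.

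MLX, the common partner, was at 46.6 to 52.4 CPM in MG and 45.4 to 57.7 CPM in HG libraries. Its log2 fold change was 0.02 with a 95% interval of -0.12 to 0.17 (edgeR adjusted p = 0.867), and the sign turned to -0.03 without HG_1. The exons of MLX overlap those of PSMC3IP on the other strand, whose log2 fold change was -0.22 (adjusted p = 0.151).

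MLXIPL, which encodes ChREBP, was close to absent. The MG libraries held 0, 5, 0, 6 and 4 reads and the HG libraries 15, 16, 5, 7 and 10 reads. In the libraries at 0, MG replicates 1 and 3, the limit of 3 reads was 0.0908 and 0.0723 CPM. The HG libraries were higher on the whole but overlapped with MG. Summed over libraries, 15 reads in MG stood against 53 in HG, a ratio of 3.68 after allowing for depth, with a counting interval of 2.05 to 7.04 that leaves out the spread between libraries. The exact permutation test on log2 CPM gave p = 0.0238. Fitted without the filter on low counts, MLXIPL had an edgeR adjusted p of 0.218, and DESeq2 gave it an adjusted p of 0.111. In FPKM, MLXIP in MG libraries was at 4.96 ± 0.24 where MLXIPL was at 0.0204 ± 0.0216.

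KLF10, which is known both as a TGF-beta-induced gene and as a sugar-responsive one, did not rise. It was at 58.8, 44.3, 54.2, 57.7 and 58.9 CPM in MG replicates 1 to 5 and at 38.6, 45.2, 45.6, 50.6 and 51.8 CPM in HG_1 to HG_5. The groups overlapped through MG replicate 2, the lowest MG library, and the lowest library of each group was HG_1 and MG replicate 2. The log2 fold change was -0.24 with a 95% interval of -0.46 to -0.02 (unadjusted p = 0.0328, edgeR adjusted p = 0.133), and the exact permutation p was 0.0714. Without MG replicate 2 the edgeR adjusted p of KLF10 was 0.0333 (log2 fold change -0.31), and without HG_1 and MG replicate 2 together it was 0.00974 (-0.25).

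HG_1 and MG replicate 2 were set apart from the other libraries on the second principal component (14.9% of variance, against 17% for the first, which separated the MG from the HG libraries). Their log2 expression rose with gene GC content by 0.184 and 0.166 per 10 points, against -0.091 to -0.00407 in the other 8. Without both libraries the log2 fold changes were 3.3 for TXNIP, 0.75 for ARRDC4, 1.03 for ARRDC3 and -0.36 for MLXIP, and each passed the edgeR test. Total counts were between 33039260 and 45864176 in MG and between 32448991 and 44400714 in HG libraries.

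RPE identity was checked in the same libraries. The RPE transcription factor genes MITF and OTX2 had at least 1691 and 2902 reads in each library, and KRT8 and KRT18, keratins of simple epithelia, at least 34599 and 19297. The defining visual cycle gene RPE65 had at most 6 reads, TTR none, TYR at most 34 and DCT at most 17. Other markers of mature or pigmented RPE were detected in each library at low counts, RLBP1 with at least 245 reads, RDH5 with 174, PMEL with 63, TYRP1 with 36 and LRAT with 30, and SERPINF1 had at least 17. BEST1 ran from 24 to 18223 reads among the MG libraries and from 44 to 300 among the HG libraries. Of the 15 RPE markers 11 were tested, of which 3 fell (PMEL, log2 -0.71, KRT18, -0.68, and KRT8, -0.62), none rose and 8 did not pass, where 7.8% of all rows fell. After the GC and length correction 7 of the 11 fell, as did 7 without HG_1 and MG replicate 2 together, where 13% and 13.8% of all rows did. Among the markers of other cell types, CDH5, INS and MYH7 were at 0, PTPRC, PECAM1, ALB and GFAP had at most 7 reads and VWF at most 24. CD68, a lysosomal protein gene used as a macrophage marker, had 1798 to 3615 reads in MG and 3341 to 5520 in HG libraries and rose (log2 0.70, edgeR adjusted p = 0.00311). PTPRC, the general leukocyte gene, had at most 4 reads.

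Other genes known as targets of the sensors rose in part, and whether the sensors had a part in this was not tested. Of 23 target genes of MondoA and ChREBP with a row in the tables, TXNIP and ARRDC4 left aside and MLXIPL included, 14 were tested, of which 8 rose, none fell and 6 did not pass (median log2 fold change 0.29, against 0.00132 over all rows, of which 7.62% rose and 7.8% fell). After the GC and length correction 10 of the 14 rose, and 9 did without HG_1 and MG replicate 2 together, where 14.7% and 13.3% of all rows did. SCD, which makes monounsaturated fatty acids, rose most, from 1000 ± 161 to 2350 ± 192 CPM (log2 1.23, SE 0.11, edgeR adjusted p = 0.000102). PNPLA3, a lipid droplet protein gene, rose by 0.54 on the log2 scale (adjusted p = 0.00495), ACLY, which makes cytosolic acetyl-CoA, by 0.49 (adjusted p = 0.000422) and GPAM, the first enzyme of glycerolipid synthesis, by 0.48 (adjusted p = 0.0252). FASN, ELOVL6, ME1 and BHLHE40 also rose, whereas ACACA (log2 0.23, adjusted p = 0.145) and ACACB (0.11, adjusted p = 0.462), the acetyl-CoA carboxylase genes, did not pass. The enzymes among these make fatty acids and glycerolipids or supply their precursors, and many are also known targets of the sterol-regulated factors. The glycolytic targets HK2 (log2 0.45, adjusted p = 0.113) and PFKFB3 (-0.01, adjusted p = 0.974) did not pass. The liver targets PKLR and THRSP had at most 5 reads in any library.

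Genes of glucose entry and of cargo that alpha-arrestins act on moved both ways. Of 12 listed, 10 were tested, of which 2 rose, 3 fell and 5 did not pass (median -0.14), where 7.62% of all rows rose and 7.8% fell. After the GC and length correction 3 rose and 4 fell, where 14.7% of all rows rose and 13% fell. Without HG_1 and MG replicate 2 together 2 rose and 3 fell, where 13.3% and 13.8% of all rows did. SLC2A1, the glucose transporter gene with the highest FPKM of the list (250 in MG libraries) and a client of TXNIP and ARRDC4 at the protein level, fell from 916 ± 49.2 to 586 ± 42 CPM (log2 -0.64, SE 0.06, edgeR adjusted p = 9.8e-05). ITGB4, integrin beta 4, fell from 22 ± 1 to 9.98 ± 1.83 CPM (log2 -1.14, SE 0.12, adjusted p = 0.000171). The hexokinase genes HKDC1 (log2 0.37, adjusted p = 0.00651) and HK1 (log2 0.30, adjusted p = 0.00133) rose.

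The genes for partners and fold relatives of TXNIP are read against the 15.4% of all rows that passed, and those for transcription factors likewise. In the thioredoxin system and among TXNIP partners, 1 of 9 tested rose, DDIT4, an inhibitor of mTORC1 (log2 0.35, adjusted p = 0.0146), and none fell (median 0.15). For TXN, the thioredoxin that TXNIP binds, the log2 value was 0.15 (adjusted p = 0.303), and for MAP3K5, the kinase ASK1, it was 0.59 (adjusted p = 0.0807). Of 10 ubiquitin ligases and sorting partners, PDCD6IP, which encodes the endosomal sorting protein ALIX, rose (log2 0.22, adjusted p = 0.024), none fell and 9 did not pass (median 0.04). Of 5 other arrestin-fold genes tested, the retromer-type subunits VPS26C (log2 0.29, adjusted p = 0.00251) and VPS26A (0.27, adjusted p = 0.0194) rose and 3 did not pass (median 0.14).

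Of 11 genes for known regulators of TXNIP, among them AMPK subunits, FOXO factors and NF-Y, NFYB fell (log2 -0.20, adjusted p = 0.0365), none rose and 10 did not pass (median 0.03). In the MYC and MAX network, whose members compete for E-boxes, MNT (log2 0.34, adjusted p = 0.00423) and MAX (0.24, adjusted p = 0.0186) rose and 7 of 9 tested did not pass (median 0.15). Of 12 tested KLF genes other than KLF10, KLF2 (log2 0.73, adjusted p = 0.00393) and KLF11 (0.45, adjusted p = 0.0277) rose, KLF5 fell (-0.37, adjusted p = 0.0473) and 9 did not pass (median 0.05). After the GC and length correction, 14.7% of all rows rose and 13% fell. Without HG_1 and MG replicate 2 together, 13.3% rose and 13.8% fell. In both settings 3 of the 9 thioredoxin system and partner genes rose, and 3 of the 11 TXNIP regulators rose and 1 fell. After the correction 2 of the 10 ligases and sorting partners rose and 1 fell, and 3 of the 5 arrestin-fold genes rose. In the MYC and MAX network 3 rose and 1 fell, as did 3 and 1 of the KLF genes. Without both libraries, 1 ligase or sorting partner rose and 1 fell, and 2 arrestin-fold genes rose. The network then had 2 higher and 1 lower, and the KLF genes 3 higher and 2 lower.

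**Figure D4:**
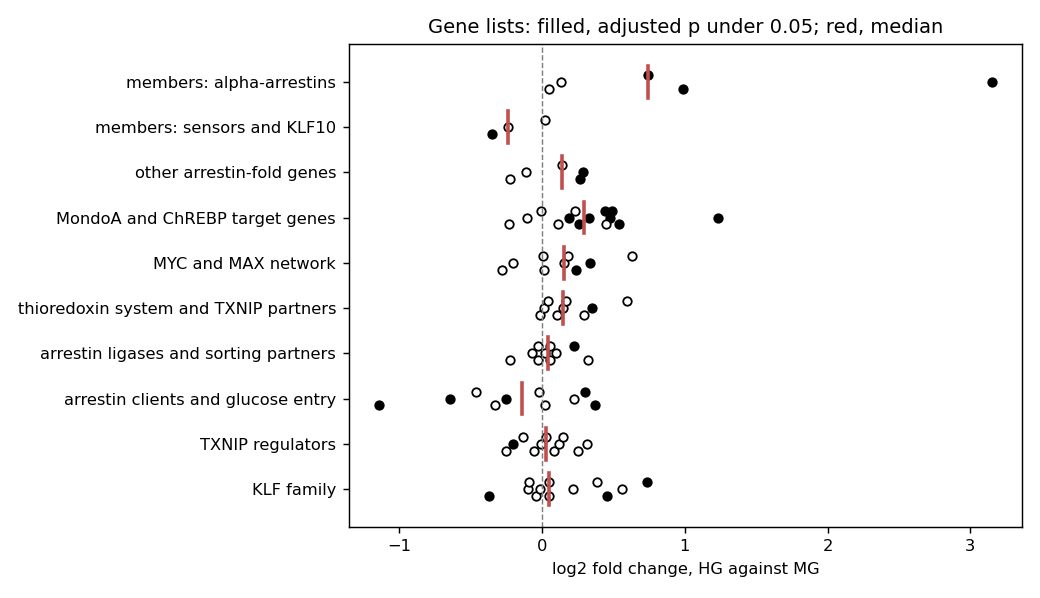
Log2 fold change of HG against MG for the tested genes of each list (points) and the list median (red line). Filled points have an adjusted p under 0.05, and the target genes of MondoA and ChREBP have 8 filled points of 14, all above 0.

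The paired motif of the TXNIP promoter was then looked up in all genes of the RefSeq table. Of the 27 genes with that motif in the RefSeq window, 19 were tested, of which 2 rose and none fell. TXNIP, whose promoter prompted the search, is counted among the 19 and among the 2. Beside TXNIP the other was PPP2R3C, a regulatory subunit of protein phosphatase 2A, named after its values were seen (log2 0.24, adjusted p = 0.0189). The median log2 fold change of the 19 was 0.04. It was 0.00353 over the 10950 tested genes with a RefSeq promoter without the motif, of which 872 rose and 906 fell. The window is short, and sites beyond it were not searched.

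The neighbours of TXNIP on chromosome 1 did not rise as it did. TXNIP lies at chr1:145992435-145996600 (GRCh38, GENCODE 29, minus strand). POLR3GL, an RNA polymerase III subunit gene whose start is 31.9 kb from that of TXNIP, rose by 0.34 on the log2 scale (SE 0.10, edgeR adjusted p = 0.0367). ANKRD34A, at a distance of 32 kb, had 0.21 (adjusted p = 0.462) and NBPF10, at 148.2 kb, 0.09 (adjusted p = 0.321), a member of a family of near-identical copies whose reads may be split. HJV and AC243547.3 had no reads, and AC239799.1 has no row. PDZK1, the scaffold gene the study is about, lies 288.5 kb from TXNIP and fell from 2.5 to 0.366 CPM (log2 -2.75, SE 0.29, adjusted p = 0.000182), so that genes of this stretch moved in opposite directions. Around ARRDC4 (chr15:97960698-97973838, plus strand) the tested neighbours are far off, NR2F2 at 1634.8 kb (log2 -0.04, adjusted p = 0.742) and IGF1R at 687.8 kb (-0.25, adjusted p = 0.0898). MCTP2 and PGPEP1L had at most 1 read, and SPATA8 and FAM169B have no row.

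**Figure D5:**
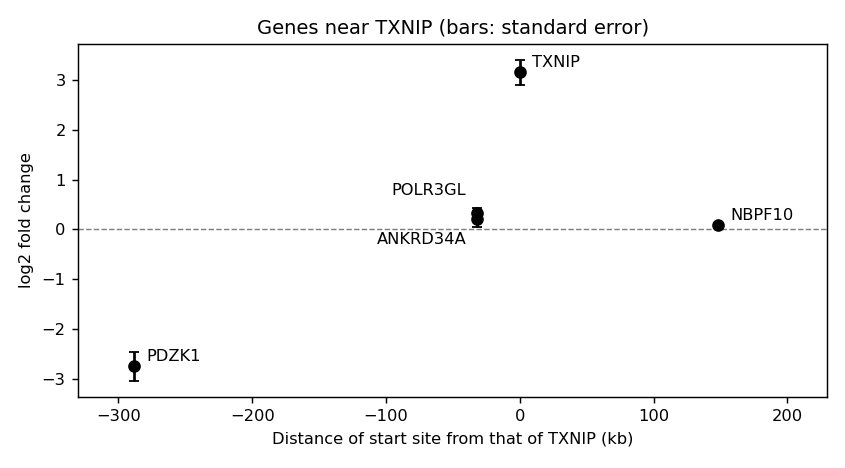
Log2 fold change of HG against MG for tested genes near TXNIP, by the distance of their start site from that of TXNIP in kb, with standard errors as bars. TXNIP stands at 3.15, POLR3GL at 0.34, and PDZK1 at -2.75.

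The genes whose profile over the 10 libraries was most like that of TXNIP were found by the root mean square difference of log2 CPM after centring each gene on its own mean, over 12364 genes with at least 1 CPM on average. They were PNLIPRP3, a pancreatic-lipase-related gene (difference 0.52), the collagenase MMP1 (0.64), PAPPA2, a protease of insulin-like growth factor binding proteins (0.69), asparagine synthetase ASNS (0.77) and the stromelysin MMP3 (0.78). Their log2 fold changes ran from 1.72 (ASNS) to 2.93 (PNLIPRP3), all below the 3.15 of TXNIP. For ARRDC4 the most alike were OGA, the enzyme that removes O-GlcNAc from proteins (0.10), the transcription factor genes ETV1 (0.10) and MAF (0.12), ANK2 (0.12) and STEAP2 (0.12), with log2 fold changes of 0.59 to 0.78. Neither list held another of the 9 genes, and the measure takes the group difference and the spread within groups together.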

How the data were processed

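RNA of ARPE-19 cells (Trizol, VAHTS Universal V6 kit) was sequenced by a company. The submitters' processing notes name fastp 0.20.1, HISAT2 2.2.1 and GRCh38; the counting program, its strand setting and the annotation are not given in the sources used here. The authors deposited whole-number read counts per gene without normalization, and FPKM values, which take transcript length and sequencing depth into account. Both tables have 22626 rows; loci named MSTRG held 1.34% to 1.65% of a library's counts.

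Counts were compared with edgeR 4.0.16 in R 4.3.3 (default filter, TMM, quasi-likelihood test, Benjamini-Hochberg adjustment over all 14936 rows tested). Log2 CPM used a prior count of 2, and permutation tests were two-sided and exact. FPKM served to compare levels between genes. Intervals are at 95%, and a count of 0 was taken to allow 3 reads. Within groups, all pairs of libraries differed by more than sampling noise (chi-square per gene 13 to 77.9, where 1 is expected). The steps were tested on simulated data.

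The members and lists were chosen with earlier results of these data known, and no test was made over a list. Named genes are the 9 members, of each list up to 4 genes past an adjusted p of 0.05, taken by size of change, the 3 nearest protein-coding genes on each side of TXNIP and ARRDC4, and the 5 genes most alike in profile to each. HK2, PFKFB3, FASN, ELOVL6, ME1, BHLHE40, ACACA, ACACB, TXN, MAP3K5, PSMC3IP, PDZK1, PKLR, THRSP and markers are named in addition, and some genes of the lists are counted but not reported here. Positions are from GENCODE 29. Of windows of 100 bases along each member's longest coding transcript, 0% occurred in transcripts of another gene. A planned comparison of the proteins was not run.

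Alternatives were a test with DESeq2 1.42.0, scaling by RLE or by library size only, removing the filter or asking for 10 counts in every library, limma 3.58.1 on log2 FPKM with a pseudocount of 1 or 0.1 or on rows whose FPKM averaged 1 or more, a correction for GC content and length (lowess span 0.3), no MSTRG loci, and libraries left out. Counts for the lists under that correction and without HG_1 and MG replicate 2 were added after seeing the data. The study's protein, PCR and animal data were not analysed here.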

Additional observations from a re-analysis of the deposited data

Results flagged for a closer look

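Of 26 groups of 5 libraries tested for a library far from the others, 1 was marked, where chance alone would mark about 1.3. ARRDC1 was at 37.8 CPM in HG_1 and at 31.3 to 32.9 CPM in the other HG libraries, a gap of 0.752 of the range. HG_1 is one of the libraries with a GC trend. With all libraries and no correction the log2 fold change of ARRDC1 was 0.05. It was 0.000576 without HG_1, 0.103 without MG replicate 2, the other library with that trend, and 0.0528 without both. After the GC and length correction it was 0.11 (edgeR adjusted p = 0.116).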

How the results depend on the processing

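TXNIP, ARRDC4, ARRDC3 and MLXIP kept their direction and stayed past the threshold under all alternatives that could be fitted; ARRDC4 was left out by the limit of a mean FPKM of 1, where 3 members passed. With 1 library left out, the log2 fold change ran from 2.97 to 3.29 for TXNIP, 0.69 to 0.81 for ARRDC4, 0.93 to 1.05 for ARRDC3 and -0.38 to -0.32 for MLXIP. That of MLX ran from -0.031 to 0.0554 and its log2 CPM difference from -0.0345 to 0.0521, both turning sign without HG_1, and it was -0.00812 without HG_1 and MG replicate 2 together. That of KLF10 ran from -0.31 to -0.18, passing without MG replicate 2, and it was -0.25 without both libraries. The KLF10 log2 CPM difference ran from -0.31 to -0.18, with an exact permutation p of 0.0476 without HG_5 and 0.0159 without MG replicate 2. The log2 ratio of ARRDC4 to ARRDC3 ran from -0.31 to -0.20. Over all rows, 2303 passed; 3745 did after the GC and length correction and 4035 without HG_1 and MG replicate 2 together, with 1648 to 2993 on leaving out 1 library. The cause of these shifts was not tested. No paired analysis was possible because the labels of the groups share no replicate numbers (MG1 to MG5 against HG_A to HG_E), and the numbers in the deposited column headers served as names only. Depth limits MLXIPL and the MG level of TXNIP most.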
